A study of Arabidopsis thaliana with 434 samples.

Results

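The Arabidopsis thaliana line labelled anac082, a T-DNA insertion line in the Columbia background, was represented by 8 of the 434 leaf samples of the series. They were chosen by genotype and letter in the sample titles, 2 samples at each of 4 leaf ages (14, 18, 22 and 26 d), both of letter A. They were compared with the Columbia wild type of letter A at the same age, with 4 samples at 14 d and 2 at each of 18, 22 and 26 d (10 in all). All wild type, 34 samples of letters A to D (10 at 14 d and 8 at each later age), served as a wider control. The line was also compared with 17 other insertion lines of letter A (136 samples). Of these the line labelled anac017 (8 samples) was compared by itself as well, and so was the anac090 line of letter C (8 samples). The series measured 49 NAC genes by nCounter, a method that counts barcoded probes hybridised to RNA without amplification, in wild type and in 49 insertion lines. Whole leaves of plants grown in long days were used, so that a lower count may mean fewer cells of a type or less RNA per cell, which cannot be told apart. The insertion came from the SALK, SAIL or GABI-KAT collection, and the labels name neither which of these, nor the position of the insertion, nor a second allele. They also do not give what the letters stand for, nor whether the 2 samples of a group were different plants. The p-values below therefore rest on sample-to-sample spread alone, part or all of which could be technical.

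NAC proteins are plant-specific transcription factors that share a DNA-binding domain at the amino end. Many of them change in level as leaves age, and among them are activators and repressors of leaf senescence, the ordered dismantling of the leaf before it dies. ANAC082 (AT5G09330) is known in Arabidopsis as a mediator of the ribosomal stress response, through which defects in ribosome assembly alter development, and it interacts with a regulator of vessel formation. It has been singled out with ANAC017, a membrane-tethered factor of mitochondrial signalling, and ANAC090, a repressor of salicylic acid responses, as a trio that acts against senescence before it begins.

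ANAC082 RNA itself was not detectably lower in the line labelled anac082, which is called anac082 or the mutant below by its label only. Counts were divided by the mean of 4 reference genes (ACT2, ACT7, TUB2 and UBQ10) and rescaled to a common level, and are called normalised counts below. At 14 d the mutant samples had 848.4 and 770.9 normalised counts, and wild type of letter A had 813.5, 806.1, 820.6 and 905.6. At 18 d the values were 875.4 and 1054 against 891.3 and 891. At 22 d they were 720.1 and 1402 against 1180 and 1246. At 26 d they were 1358 and 1457 against 1413 and 1237. Mutant and wild type overlapped at 14, 22 and 26 d, and at 18 d one mutant sample lay just below and the other above both wild-type samples. The first mutant sample at 22 d was the lowest of the 4 at that age and the second was the highest.

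On the log2 scale the pooled difference of ANAC082, mutant minus wild type with each age weighted equally, was -0.0055 (SE 0.089, 95% interval -0.18 to 0.17; adjusted p = 0.95 by edgeR's quasi-likelihood test, over the targeted genes of all lines). In fold terms the interval ran from 0.882 to 1.125. By age the differences were -0.05 at 14 d, 0.11 at 18 d, -0.18 at 22 d and 0.09 at 26 d, none of which passed the test (adjusted p from 0.409 to 0.785). Without the second mutant sample at 22 d the difference of ANAC082 at that age was -0.75, and the median over the tested genes was then -0.57. The mutant sample that remained there had a total of 33181 counts. Without the first mutant sample the difference of ANAC082 was 0.21. All mean levels of the mutant lay within the range of all wild type. That range was 672.8 to 1010 at 14 d, 656 to 1044 at 18 d, 912.9 to 1246 at 22 d and 1029 to 1566 at 26 d. Single samples fell outside it: both of 22 d (720.1 and 1402), and at 18 d the higher of the pair (1054). Since neither the insertion site nor the probed stretch is given, the label could not be checked from the transcript. With the same probe set, 19 of the 47 lines with a tested target had it more than 1 log2 unit below wild type.

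**Figure D1:**
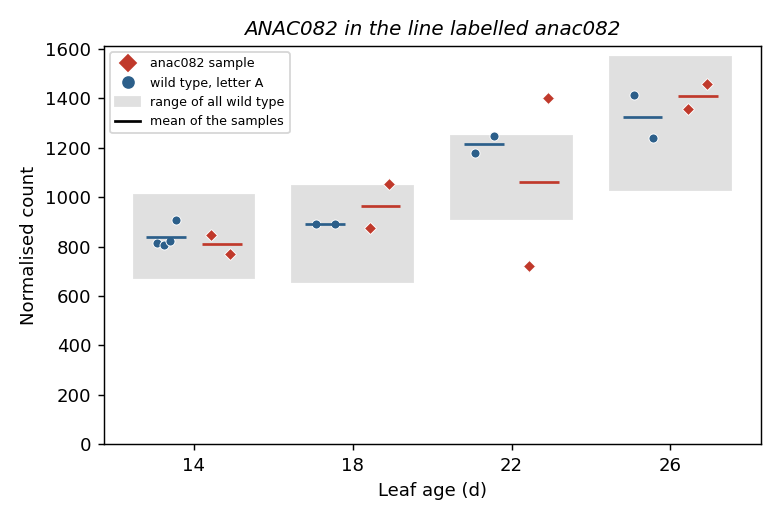
Normalised counts of ANAC082 (vertical axis, from 0) by leaf age in days, with 1 diamond per sample of the line labelled anac082, 1 circle per wild-type sample of letter A, horizontal bars at their means and grey boxes over the range of all wild type. At 14 d the diamonds lay near the circles; at 18 d they lay just below and above the pair of circles, and at 22 d far below and above it (720.1 and 1402).

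The libraries differed in depth, within an age most of all at 22 d. Those of anac082 and wild type A at 14 d had totals of 439309 to 640466 counts and reference means of 85264 to 129900. At the later ages the totals were at most 342225 and the reference means at most 59616. Of the 18 libraries of anac082 and wild type A, 17 had total counts of 187841 to 640466 and reference means of 30765 to 129900 counts. The first anac082 library at 22 d had a total of 33181 counts and a reference mean of 5199.5, the second lowest of the series. Its positive control probes, which are added in fixed amounts, summed to 7296 against 16410 to 47126 in the other 17. In the whole series 9 libraries had a reference mean under 10000, and all 9 were number 1 libraries of letter A at 22 d, of which there were 19. The median absolute log2 difference between the replicates at 22 d was 0.83 in anac082 and 0.59 in wild type A, against 0.20 to 0.31 in either genotype at the other ages. No pair of replicates was identical, and none of the 13 same-group pairs agreed within sampling noise.

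Across the 4 ages together, no other NAC gene in the line labelled anac082 passed the test against wild type of letter A. Of 46 tested genes other than ANAC082, 0 were called at an adjusted p under 0.05 in edgeR's quasi-likelihood test (0% of the genes tested), 1 had an unadjusted p under 0.05, and DESeq2, limma on the authors' log2 values and an exact permutation within age also called 0. With all lines together, 22 of 2256 pairs of line and other gene were called (0.975%). The pooled differences ran from -0.27 to 0.58 on the log2 scale, with 28 genes above 0 and 18 below and a median of 0.08. For 43 of the 46 genes the 95% interval lay within 1 log2 unit on either side of 0, and for 23 within 1.5-fold, so that larger pooled differences lie outside the intervals of those genes.

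**Figure D2:**
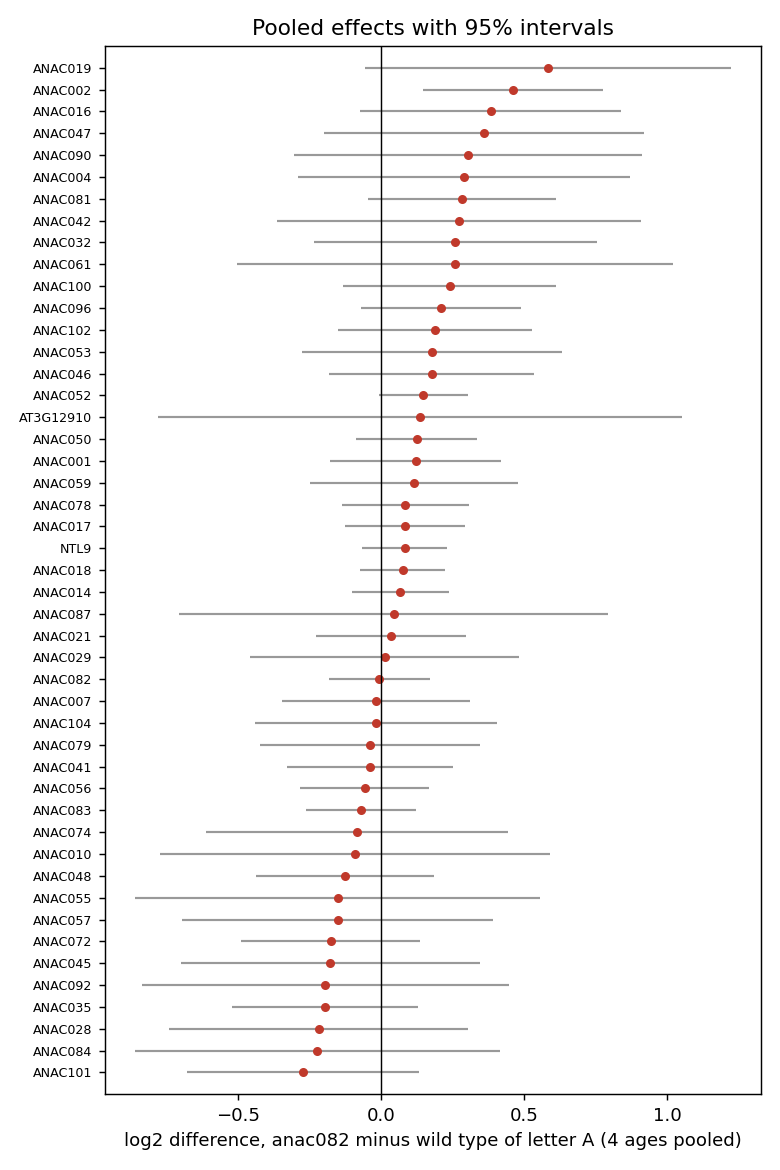
Pooled log2 differences between the line labelled anac082 and wild type of letter A (horizontal axis, log2) for the 47 tested NAC genes, sorted by size; dots are estimates over 4 ages and lines are 95% intervals. The interval of ANAC002 alone excluded 0 before adjustment, and ANAC019 lay highest at 0.58.

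ANAC002 had the smallest p. ANAC002 (AT1G01720, also ATAF1) is an abscisic acid and sugar-starvation responsive factor that promotes senescence. Its normalised counts at 14 d were 526 and 525.7 in the mutant, and 572.4, 506.8, 385 and 475.6 in wild type A. At 18 d it had 847.4 and 966.8 against 398.9 and 450.5. Both mutant samples at 18 d lay above both wild-type samples of letter A and above the highest of the 8 wild-type samples of that age (704.3). At 22 d the values were 802.9 and 1709 against 881.3 and 1183. At 26 d they were 1073 and 1484 against 745.1 and 1278. The groups overlapped at 14, 22 and 26 d. The pooled difference was 0.46 (SE 0.16, 95% interval 0.15 to 0.78, 1.38-fold), with an unadjusted p of 0.0042 and an adjusted p of 0.258 by edgeR, and the differences by age were 0.12, 0.30 and 0.34 at 14, 22 and 26 d and 1.09 at 18 d. Without the second mutant sample at 22 d the pooled value was 0.30, and over all libraries left out in turn it ran from 0.30 to 0.57.

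ANAC019 (AT1G52890), a jasmonate and abscisic acid responsive factor of the stress clade, had the largest pooled difference. The mutant samples at 18 d held 563.9 and 618.9 normalised counts and those of wild type A 190.6 and 185.8, a 3.14-fold difference (1.65 on the log2 scale, SE 0.67; edgeR adjusted p = 0.997). The mutant lay above both samples of wild type A, but the highest wild-type sample of any letter at 18 d had 607.9. At 22 d the mutant had 562.8 and 2371 against 561.3 and 2254, so that each genotype held 1 low and 1 high sample. At 14 d it had 121.8 and 181.3 against a wild-type range of 74.54 to 164.9, and at 26 d 1078 and 1798 against 891.3 and 1453. Pooled, the difference was 0.58 (SE 0.32, adjusted p = 0.818), and it ran from 0.23 to 0.92 with each library left out in turn.

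ANAC016, a membrane-associated factor that promotes chlorophyll breakdown, followed with a pooled difference of 0.38 (SE 0.23, adjusted p = 0.887). At 14 d its mutant samples had 108.6 and 129.6 normalised counts, and wild type A ranged from 83.28 to 157.1. For 18 d the mutant pair was 293.2 and 305 and the wild-type pair 203.6 and 222.1; for 22 d they were 314.5 and 851.3 against 329.4 and 527.4. The 26 d values were 812.9 and 735.8 in the mutant and 636.1 and 508 in wild type A. The mutant lay above wild type A at 18 and 26 d and overlapped with it at 14 and 22 d.

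The other 7 of the 10 largest positive pooled differences were ANAC047 (0.36), a regulator of leaf movement under waterlogging, ANAC090 (0.31), ANAC004 (0.29), ANAC081 (0.28), also ATAF2, a wound and defence responsive factor, ANAC042 (0.27), also JUNGBRUNNEN1, which delays senescence, ANAC032 (0.26) and ANAC061 (0.26). The 10 largest negative ones were ANAC101 (-0.27), a vessel regulator also named VND6, ANAC084 (-0.22), ANAC028 (-0.22), ANAC035 (-0.20), a regulator of flowering time, ANAC092 (-0.20), also ORE1, a central activator of leaf senescence, ANAC045 (-0.18), which governs enucleation of phloem sieve elements, ANAC072 (-0.18), also RD26, ANAC057 (-0.15), ANAC055 (-0.15) and ANAC048 (-0.13). SEs of these 17 were 0.16 to 0.39, and none was called (edgeR adjusted p of 0.868 or above). ANAC101 was read nearer the background of the negative probes after 14 d, with 1 to 19 raw counts in the mutant. The negative probes averaged 1.5 to 6.375 in those libraries. At 14 d it had 84 and 66 raw counts, against negative means of 10.75 and 11.38. Low readings at some ages were also found for ANAC028 (4.86 to 26.11 normalised counts in the mutant over the 4 ages) and ANAC045 (4.86 to 46.09). They were found for ANAC057 (4.312 to 20.43) and ANAC084 (8.625 to 74.47) as well.

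**Figure D3:**
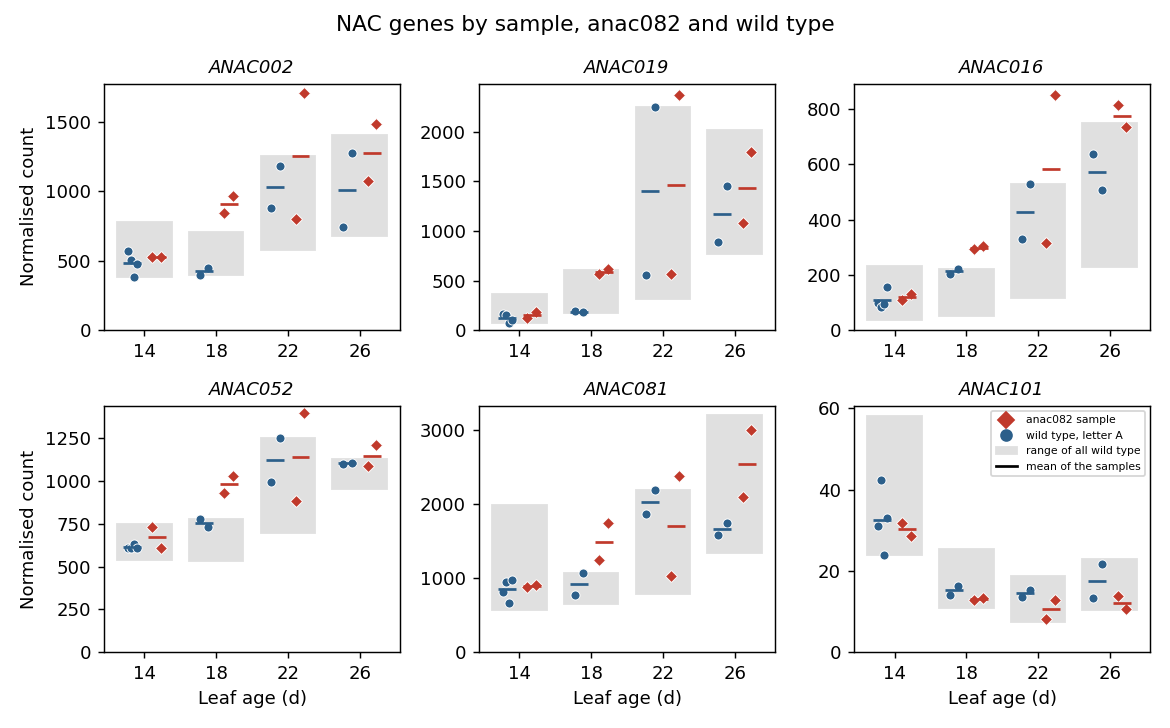
Normalised counts (vertical axes, from 0) by leaf age in days for ANAC002, ANAC019, ANAC016, ANAC052, ANAC081 and ANAC101, with diamonds for anac082, circles for wild type of letter A, bars for their means and grey boxes for the range of all wild type. At 18 d the diamonds of ANAC002, ANAC016, ANAC052 and ANAC081 lay above the grey box, and at 22 d the 2 diamonds lay far apart.

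Seen age by age, 0 genes were called at 14, 18, 22 or 26 d (0% of 46 at each age), with 0, 6, 1 and 1 genes at an unadjusted p under 0.05 in edgeR. DESeq2 called 0 at every age, with 0, 3, 0 and 3 genes at an unadjusted p under 0.05. In all lines together 1.51% of pairs were called at 14 d, 0.177% at 18 d, 0.0887% at 22 d and 0.222% at 26 d. Of the 46 genes, 6 lay above wild type at all 4 ages (ANAC002, ANAC016, ANAC019, ANAC050, ANAC052 and ANAC090), 2 below at all 4 (ANAC084 and ANAC101), and 38 had both signs.

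With the 4 references as scale, 18 d was the age at which the line stood highest relative to wild type A. The median over the 46 genes was 0.28, with 34 above 0, and the summed NAC counts were 26.6% and 28.4% of the summed reference counts in the mutant against 22% and 25.3% in wild type A. That shift depends on the scale: the median over all 47 tested genes was 0.28 with the 4 references, 0.17 with their geometric mean, 0.10 without UBQ10, 0.04 with TMM and -0.04 with DESeq2. The order of the ages depends on it too: at 26 d that median was 0.08 with the 4 references, but 0.29 with their geometric mean and 0.33 without UBQ10, above the values of 18 d, and with DESeq2 all 4 ages lay between -0.06 and -0.02. UBQ10 made up 79.2% and 76.8% of the reference counts in the mutant and 79.6% and 81.3% in wild type A. Relative to the median, ANAC019 lay 1.37, ANAC087 0.87, ANAC002 0.81 and ANAC004 0.66 above wild type A. The 6 genes at an unadjusted p under 0.05 were ANAC002, ANAC014, ANAC019, ANAC052, ANAC081 and NTL9, all higher in the mutant, with differences of 0.34 to 1.65. ANAC002 at 18 d, 2.14-fold (95% interval 1.36 to 3.36), had an edgeR adjusted p of 0.350, and the smallest adjusted p over the genes of this line alone was 0.057. With TMM its difference at that age was 0.85 and with DESeq2 0.77. The most negative gene at 18 d was ANAC048 (-0.36, SE 0.32).

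In 21 of 46 genes at 18 d (45.7%) both mutant samples lay outside wild type A, 20 above and ANAC101 below. With 2 samples against 2 this is frequent: over 48 lines other than anac092 it held for 33.3% of genes at 18 d, with 5 to 24 genes a line and a median of 14.5. At 14 d it held for 1 gene in anac082 (2.17%, ANAC079), with 4 wild-type samples. Over all lines the share was 27.6%, but letters B, C and D had 2 wild-type samples at that age. Both samples fall outside 2 more readily than outside 4, so these 2 shares are not alike. At 22 d it held for 5 (10.9%, against 25.9%) and at 26 d for 14 (30.4%, against 28%). Set against all 8 wild-type samples of 18 d, both mutant samples were above the highest for 9 genes (19.6% of 46): ANAC002, ANAC004, ANAC016, ANAC047, ANAC052, ANAC053, ANAC081, ANAC087 and ANAC100. Against all wild type this held for 0 genes at 14 and 26 d and for ANAC018 alone at 22 d, and none of the 46 tested genes lay below all wild type at any age. The share of the other lines against all wild type is not given here, so whether 9 genes are many cannot be said.

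At 14 d the extremes were ANAC004 (0.88, SE 0.51) and ANAC057 (-0.43, SE 0.35). ANAC004 stood at 174.1 and 62.18 normalised counts in the mutant and ranged from 45.62 to 82.11 in wild type A, so 1 of the 2 samples lay above and the other inside. At 22 d the extremes were ANAC096 (0.63, SE 0.31) and AT3G12910 (-0.999, SE 0.985). AT3G12910, a NAC gene without a common name, had 41.38 and 114.3 against 44.06 and 306.4, and its difference was 0.98 without the second wild-type sample. At 26 d the extremes were ANAC061 (1.30, SE 0.77), with 206.5 and 433.5 against 142.2 and 116.2, and ANAC074 (-1.01, SE 0.51), with 12.99 and 17.5 against 23.7 and 37.83. Both groups were separate at 26 d for these 2 genes, neither of which was called (edgeR adjusted p = 0.999).

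**Figure D4:**
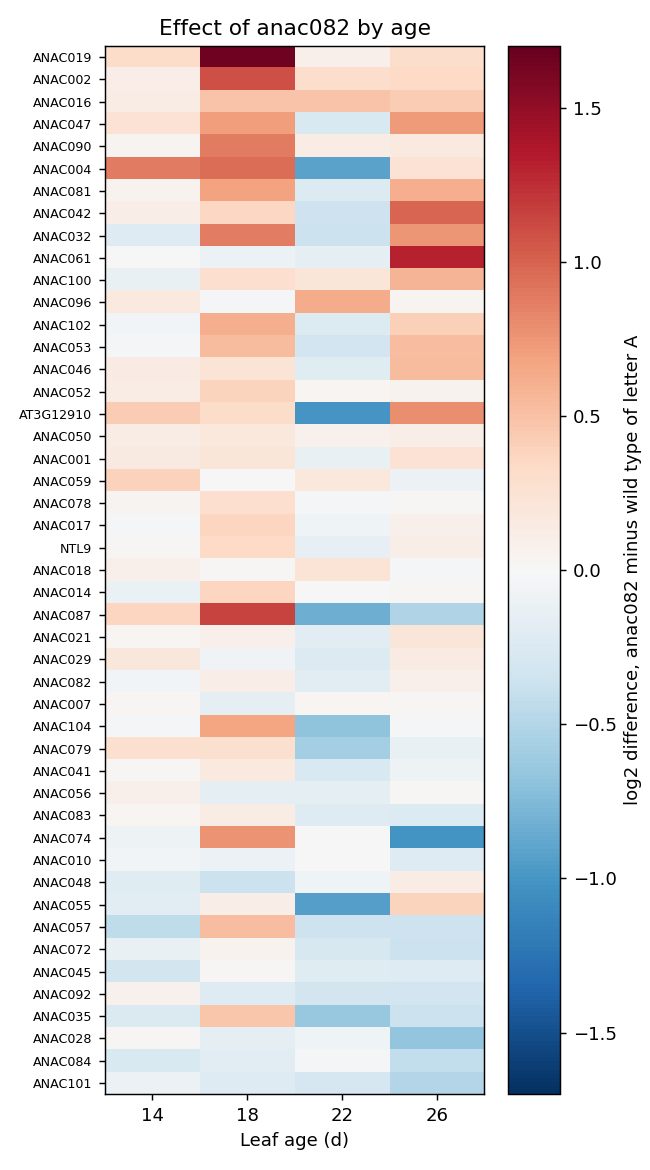
Heat map of log2 differences between the line labelled anac082 and wild type of letter A, with 1 row per tested NAC gene in the order of the pooled difference and 1 column per leaf age in days; red is higher in the mutant and blue lower. The 18 d column was red for most genes (median 0.28) and the 22 d column blue for most (median -0.18).

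The effect of the line did not change detectably with age. Of 46 genes, 0 were called for the change from 14 to 18, 22 or 26 d (0% in each), with 2, 1 and 0 genes at an unadjusted p under 0.05 in edgeR and 1, 1 and 1 in DESeq2, which also called 0. The 3 largest changes were ANAC004 from 14 to 22 d (-1.79, SE 0.82), AT3G12910 from 14 to 22 d (-1.43, SE 1.29) and ANAC019 from 14 to 18 d (1.34, SE 0.89). ANAC002 changed by 0.98 from 14 to 18 d (SE 0.44, unadjusted p 0.028, edgeR adjusted p = 0.707).

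The control that was used mattered for 2 genes. With all wild type in place of wild type A, 2 genes were called pooled, both higher: ANAC052 (0.28, SE 0.066, edgeR adjusted p = 0.0016) and ANAC016 (0.83, SE 0.20, adjusted p = 0.0017). At 18 d ANAC052 was called as well (0.53, SE 0.13, adjusted p = 0.0063). Against wild type A the pooled value of ANAC052, a cofactor of histone demethylation in the control of flowering, was 0.15 (SE 0.079, adjusted p = 0.797); it is named here because of its call. Wild types of different letters were not at the same level: ANAC016 at 18 d had means of 212.8, 105.8, 86.58 and 80.85 normalised counts in letters A, B, C and D, and the mutant 299.1. For ANAC052 at 18 d the means were 755.7, 606.1, 711.5 and 638.6, and the mutant had 929.3 and 1029. At 14 d ANAC052 in the mutant (733 and 607) lay within the wild-type range of 539.9 to 748.4. The mean of letter A was the highest of the 4 letters at 18 d for both genes, and letter and genotype cannot be told apart with all wild type as the control. ANAC002 was 0.34 with all wild type (adjusted p = 0.150).

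The lists of NAC genes by role were chosen with earlier results of these data known and are described by counts. Of 13 genes reported to promote senescence, 0 were called pooled, 10 lay above 0 and 3 below, and the median was 0.12, against 0.08 over all 47 tested genes; with DESeq2 it was 0.05. Among them ANAC002, ANAC019 and ANAC016 led, ANAC029, also NAP, stood at 0.01 and ANAC092 at -0.20. By age the median of that list was 0.12, 0.34, -0.23 and 0.29 at 14, 18, 22 and 26 d. Over all tested genes the medians were 0.04, 0.28, -0.18 and 0.08, and 28 of 47 lay above 0 pooled. The 7 genes of the abscisic acid and stress responsive SNAC-A clade (ANAC002, ANAC019, ANAC032, ANAC055, ANAC072, ANAC081 and ANAC102) had a pooled median of 0.26, with 5 above 0, and all 7 lay above 0 at 18 d, where the median was 0.69 (0.45 with TMM and 0.37 with DESeq2). Over all tested genes 35 of 47 lay above 0 at 18 d, with a median of 0.28 (0.04 with TMM and -0.04 with DESeq2). At 22 d the same clade had a median of -0.23 with 2 above 0, against -0.18 with 13 of 47 above 0 over all tested genes. None of its members was called at any age.

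The 6 genes of membrane-tethered factors lay between 0.07 and 0.38 pooled, with a median of 0.08 and 0 called, and at 18 d all 6 lay between 0.29 and 0.53, with a median of 0.36 (0.11 with TMM and 0.04 with DESeq2) against 0.28 over all tested genes. The clade of ANAC092, with ANAC059, ANAC079 and ANAC100, had a median of 0.04 and values from -0.20 to 0.24. Of the genes that delay senescence, ANAC042 lay at 0.27 and ANAC083 at -0.07. ANAC018 (0.08) and ANAC056 (-0.06), regulators of seed coat and embryo development, were close to 0. In the trio, ANAC017 lay at 0.08 and ANAC090 at 0.31 in the line labelled anac082. At 18 d ANAC090 had 140.2 and 228.1 normalised counts against 86.4 and 113.3, and ANAC017 had 4214 and 5048 against 3227 and 3990. Both mutant samples were above both wild-type samples of letter A at that age for either gene, as for 20 of 46 genes (43.5%), and neither was called. The median of the trio at 18 d, ANAC082 included, was 0.36 with the 4 references, 0.12 with TMM and 0.04 with DESeq2. Over all tested genes it was 0.28, 0.04 and -0.04.

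Vascular NAC genes were the other cell type markers in the probe set. The 5 xylem genes summed to 285 to 337 normalised counts in the mutant and 303 to 322 in wild type A at 14 d, and to 542 to 646 against 565 to 673 at 26 d. At 18 d they summed to 226 to 433 against 223 to 259 and at 22 d to 298 to 556 against 418 to 933. ANAC104, a regulator of xylem cell death also named XND1, carried these sums, with 162.7 and 203.9 normalised counts at 14 d and 488.7 and 594.8 at 26 d in the mutant. The other 4 xylem genes had lower values at 26 d than at 14 d in the mutant, so the sums describe ANAC104 rather than the list. All 4 tested xylem genes lay below 0 pooled (median -0.05), 0 were called, and ANAC076 was below the detection limit. The phloem genes ANAC045 and ANAC086 summed to 43.1 to 65.7 against 56.3 to 90 at 14 d and to 6.5 to 7.78 against 9.91 to 11.1 at 26 d. At 26 d these genes were read at background, with 2 to 7 raw counts in the mutant and 3 to 11 in wild type A, where the negative probes averaged 5.375 to 6.625, and ANAC086 was under the detection limit over the series. Their part in the other differences was not tested.

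With the reference genes as scale, most NAC genes changed with age in the line labelled anac082 and in wild type A. The base of these comparisons, 14 d, had deeper libraries than every later age, with reference means of 85264 to 129900 against at most 59616. The part of this difference in the changes was not tested. At 26 d against 14 d, 41 of 47 genes were called in the mutant (87.2%), 35 higher and 6 lower, and 42 in wild type A (89.4%), 36 higher and 6 lower; 40 genes were called in both, all in the same direction. With TMM the mutant had 16 higher and 8 lower and with DESeq2 13 and 13, so only 18 genes (13 higher, 5 lower) were called the same way under all 5 scalings. Wild type A had 14 higher and 9 lower with TMM and 10 and 14 with DESeq2, and 16 genes (10 higher, 6 lower) under all 5. The largest rises among these 18, picked after their values were seen, were ANAC087 (3.68, SE 0.78), ANAC055 (3.32, SE 0.74), ANAC047 (3.30, SE 0.58), ANAC019 (3.25, SE 0.67), AT3G12910 (3.20, SE 0.93) and ANAC046 (3.02, SE 0.37), an activator of chlorophyll breakdown. In wild type A the same genes rose by 4.56, 2.76, 2.82, 3.26, 2.84 and 2.61. The 5 that fell were ANAC045 (-2.90), ANAC028 (-2.35), ANAC010 (-2.27), ANAC057 (-2.05) and ANAC101 (-1.29), against -2.99, -1.66, -2.10, -2.13 and -0.89 in wild type A. At 26 d all of these but ANAC101 had 5 to 7 raw counts in the mutant and 3 to 12 in wild type A. The negative probes averaged 5.375 to 6.625 in these libraries. Those falls therefore ended at background, which limits their size in both genotypes. At 22 d 33 genes were called in the mutant (70.2%) and 39 in wild type A (83%), and at 18 d 22 (46.8%) and 15 (31.9%). The larger count of the mutant at 18 d was tied to the scale: mutant and wild type A had 13 and 12 with TMM, 12 and 12 with DESeq2, 13 and 18 with the geometric mean and 11 and 18 without UBQ10. Without the second mutant sample at 22 d the count at that age was 8, and without the second at 14 d 21. Without either mutant sample of 14 or 18 d in turn the count at 18 d was 8 to 12, and in wild type A it was 8 and 9 without the first and second sample of 18 d. These counts differ in a way that was tested only by the change of effect with age, in which no gene was called.

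The comparison with the other lines of letter A does not use wild-type samples. Against the mean of the other 17 letter A lines, ages pooled, 6 of 46 genes were called (13%), all higher in anac082: ANAC019 (0.85), ANAC016 (0.55), ANAC053 (0.55), ANAC002 (0.45), ANAC041 (0.36) and ANAC081 (0.34). That mean holds the lines in which some of these genes are themselves disrupted. With the line named after each gene left out, a comparison added after the data were seen, ANAC002 alone was called (1 of 46, 2.17%; 0.44, SE 0.12, edgeR adjusted p = 0.0069). ANAC019 was then at 0.57 (adjusted p = 0.160), ANAC016 at 0.50 (0.067), ANAC053 at 0.31 (0.413), ANAC041 at 0.04 (0.888) and ANAC081 at 0.34 (0.074). In the comparison with all 17 lines ANAC002 was called under each scaling, at 0.35 with TMM and 0.34 with DESeq2. The version without each gene's own line was not refitted with other scalings. In both versions the SE comes from the spread between samples of a group, and the spread between lines does not enter it. These p-values therefore cannot show whether anac082 stands apart from the single lines behind that mean. With each library left out in turn, ANAC002 ran from 0.29 to 0.56 against all 17 lines. The count of 6 fell to 0 without the second mutant sample at 22 d and to 3 without the second at 26 d.

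Of the other trio lines, the one labelled anac017 shares letter A and its wild type with anac082. Its own target was not lower but stood 1.37 above wild type pooled, so it is named by its label only. ANAC082 itself lay 0.87 above wild type in that line and -0.0055 in anac082, a difference of -0.88 (SE 0.092). Of the 45 tested genes other than these 2 targets, 4 differed between the lines (8.89%). ANAC002 was higher in anac082 by 0.57 (SE 0.17, edgeR adjusted p = 0.015), with 0.46 above wild type in anac082 and -0.11 in the line labelled anac017. ANAC084 was lower in anac082 than in the line labelled anac017 by 1.15 (-1.15, SE 0.33, edgeR adjusted p = 0.015). ANAC100 was at -0.60 (SE 0.19, adjusted p = 0.033) and ANAC056 at -0.35 (SE 0.12, adjusted p = 0.038). From wild type A, ANAC084 differed by -0.22 in anac082 and by 0.92 in the line labelled anac017. For ANAC100 these values were 0.24 and 0.84, and for ANAC056 -0.06 and 0.29. With DESeq2 the 4 calls were split into 2 higher and 2 lower, and with TMM 3 calls into 1 and 2. Both limma fits, on the authors' log2 values and after subtraction of the negative probes, called 0 of 45 (smallest adjusted p 0.053 and 0.054; 5 genes at an unadjusted p under 0.05 in each). The count was 1 or 2 without any of the first mutant sample at 14 d, either at 18 d, either at 22 d or the second at 26 d. It was 1 without the second anac017 sample at 14 d or the first at 22 d, 2 without the first at 26 d and 0 without the second at 18 d.

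ANAC090 was reduced by 1.86 pooled in the anac090 line (-1.86), which belongs to letter C, so the 2 lines were compared by their differences from the wild type of their own letter. Of the 45 tested genes other than the 2 targets, 9 differed (20%), all lower in anac082 than in anac090. They were AT3G12910 (-2.41, SE 0.72), ANAC042 (-1.73, SE 0.47), ANAC061 (-1.56, SE 0.56), ANAC016 (-1.53, SE 0.34), ANAC047 (-1.22, SE 0.41), ANAC100 (-0.97, SE 0.27), ANAC041 (-0.73, SE 0.21), ANAC001 (-0.59, SE 0.22) and ANAC021 (-0.51, SE 0.19), with edgeR adjusted p from 4.0e-04 for ANAC016 to 0.045 for ANAC021. In anac090 these genes lay 0.54 to 2.54 above wild type of letter C, while in anac082 they lay between -0.04 and 0.38. With TMM the split was 2 higher and 7 lower and with DESeq2 4 and 7, while limma called 5 on the authors' log2 values and 4 after subtraction of the negative probes. The count was 4 without the second wild-type A sample at 18 or 22 d. It was 5 without the first mutant sample at 18 or 22 d, the first anac090 sample at 14 d, the second at 18 d or the first wild-type C sample at 26 d.

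**Figure D5:**
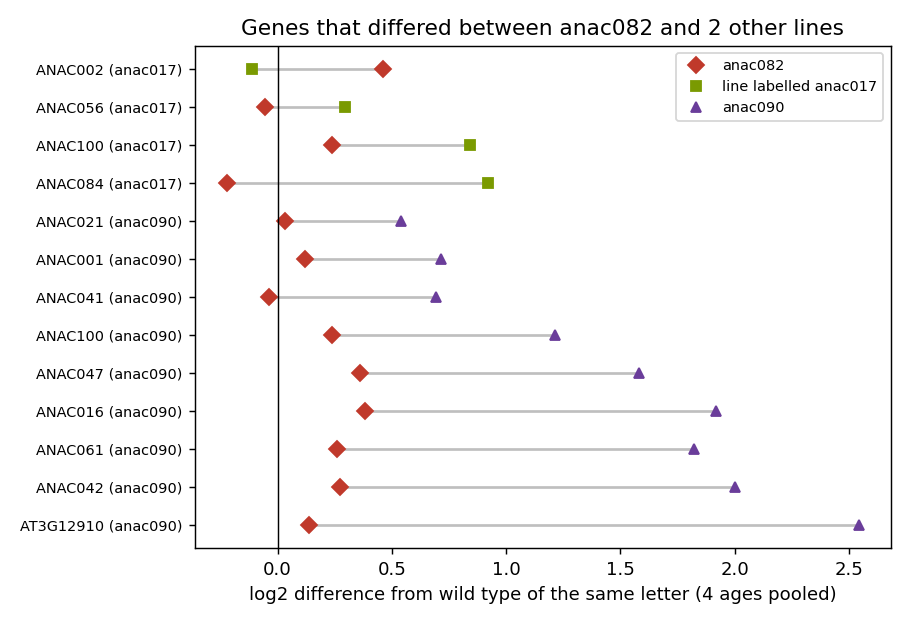
Log2 differences from the wild type of the same letter, pooled over 4 ages, for the 13 gene and line pairs in which anac082 (diamonds) differed from the line labelled anac017 (squares) or from anac090 (triangles), the other line being named beside each gene. The diamonds lay between -0.22 and 0.46, the squares between -0.11 and 0.92, and the triangles between 0.54 and 2.54.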

How the data were processed

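The authors deposited raw counts per probe in 4 tables, split by leaf age, which entered the fits unchanged; the labels' protocols state that 100 ng of total RNA entered each reaction. A table of log2 values deposited by the authors, for which the labels describe no steps, served as an alternative. The probe set held 49 NAC genes, 4 references, 8 negative and 6 positive probes. The 53 gene probes were matched by locus to RefSeq gene names.

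All 434 samples entered 1 edgeR (4.0.16, under R 4.3.3) robust quasi-likelihood model with a mean per age, genotype and letter and the arithmetic mean of the references as offset. Genes were tested if their mean raw count exceeded that of the negative probes plus 2 SD (12.6 counts), which left out ANAC076 and ANAC086. The Benjamini-Hochberg adjustment ran over 2256 pairs of line and other gene, for targets over lines and ages, and for comparisons between lines and for ageing over the tested genes, with a threshold of 0.05. All intervals cover 95%. Normalised counts are raw counts over the sample's reference mean, rescaled by the average reference mean; log2 values per sample used a pseudocount of 1. The procedure was tested on simulated data.

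The alternatives were other scalings and filters, DESeq2 1.42.0 (fitted per letter, with size factors over all samples), limma 3.58.1, an exact two-sided permutation within age over 3240 arrangements, other controls, and leaving out each age or sample. Members, lists and tests were chosen with earlier results of these data known. Named were ANAC082, the 10 largest pooled differences in each direction, the extremes at each age, the 3 largest changes with age, up to 5 called genes a direction in comparisons of lines (all 9 for anac090 and all 6 for the other lines), and examples from the lists; ageing was added after the data were seen. Sequences and coordinates were not used here.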

Additional observations from a re-analysis of the deposited data

Results flagged for a closer look

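In 3 of 40 sets of wild-type values tested, 1 sample lay far from the rest of its set, which chance gives in about 1 in 20. These were ANAC082 in wild type A at 14 d, whose highest sample had 905.6 normalised counts; ANAC042 in wild type A at 14 d, whose highest sample had 323.1; and ANAC052 over all wild type at 14 d, whose highest sample had 748.4.

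The effect of the line labelled anac082 differed from that of the line labelled anac017 by the direct test for 4 genes: ANAC084 (-1.15), ANAC100 (-0.60), ANAC056 (-0.35) and ANAC002 (0.57). It differed from that of anac090 for 9 genes: AT3G12910 (-2.41), ANAC042 (-1.73), ANAC061 (-1.56), ANAC016 (-1.53), ANAC047 (-1.22), ANAC100 (-0.97), ANAC041 (-0.73), ANAC001 (-0.59) and ANAC021 (-0.51). All values are on the log2 scale, anac082 minus the other line.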

How the results depend on the processing

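Against wild type A the counts of called genes, pooled, by age and for the change with age, were recomputed 257 times and were 0 in 255; with all wild type they were 2 pooled and 1 at 18 d. A replicate block gave 0 in each, with ANAC082 at -0.0024 pooled. The replicate numbers were not shown to pair the samples. Deviations of same-numbered samples from their group means correlated at 0.06 and -0.03 at 14 d, 0.18 at 18 d, 0.46 at 22 d and 0.43 at 26 d. Best with their own number correlated 6 of 8 mutant samples, all of 18, 22 and 26 d. With 2 samples in each group at these ages, the 2 deviations mirror each other and give 1 correlation. Any positive value then makes both samples best, so this count cannot show a pairing. At 14 d, with 4 wild-type samples, neither mutant sample correlated best with its own number. Leaving out 1 sample gave 0 to 0 calls in each. The count against the other letter A lines was 1 without each gene's own line and 0 to 7 without 1 sample. The count against the line labelled anac017 was 1 without UBQ10 or at a mean count of 100 or more, 0 with limma on either scale (on the authors' log2 values or after subtraction of the negative probes), and 0 to 4 without 1 sample. Against anac090 it was 15 without UBQ10, 5 with limma on the authors' log2 values, 4 after subtraction, and 4 to 13 without 1 sample. In ageing the mutant had 13 (TMM), 13 (geometric mean), 11 (without UBQ10) and 12 (DESeq2) calls at 18 d, 16 (TMM) and 17 (DESeq2) at 22 d, and 24 and 26 at 26 d; wild type A had 20 and 21 at 22 d and 23 and 24 at 26 d. Without 1 sample ageing calls ran from 8 to 22, 8 to 35 and 34 to 41 in the mutant and from 8 to 16, 27 to 41 and 32 to 43 in wild type A at 18, 22 and 26 d.

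ANAC082, near 0, changed sign pooled with the geometric mean (0.057), without UBQ10 (0.052), with all wild type (0.089), without 14 d (0.0082), without 22 d (0.052) and without wild type A3 and A4 (0.0061). It did so at 14 d with the geometric mean (0.035) and without UBQ10 (0.032), at 18 d with TMM (-0.14), without UBQ10 (-0.064) and with DESeq2 (-0.21), at 22 d with all wild type (0.0083) and at 26 d with DESeq2 (-0.020). Without 1 sample it ran from -0.15 to 0.091 pooled, -0.12 to 0.020 at 14 d, -0.026 to 0.24 at 18 d, -0.75 to 0.21 at 22 d and -0.0056 to 0.19 at 26 d. The median over genes at 22 d ran from -0.57 to 0.13. Among 31 gene results against wild type A, 20 of 1059 recomputed values changed sign. These were ANAC061 without 26 d (-0.091), ANAC055 with all wild type (0.0028) and without 22 d (0.11), ANAC048 with all wild type pooled (0.067) and at 18 d (0.22), and AT3G12910 at 22 d with all wild type (0.040). Without 1 sample these results ran from -0.10 to 0.43 for ANAC032, -0.39 to 0.078 for ANAC084, -0.36 to 0.13 for ANAC092, -0.32 to 0.090 for ANAC045, -0.48 to 0.013 for ANAC057, -0.49 to 0.039 for ANAC055, -0.048 to 1.44 for ANAC004 at 14 d, -0.065 to 0.99 for ANAC096 at 22 d, -2.07 to 0.98 for AT3G12910 at 22 d and -2.50 to 0.55 for its change from 14 d. The cause was not tested. With 2 mutant samples at each age, 1 of them shallow at 22 d, the distance from estimate to interval end had a median of 0.38 pooled and 0.65 to 0.81 by age.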
